A study of Mus musculus with 2 samples.

Results

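The 81 genes described here encode the proteins of the cytosolic ribosome in mouse, and were picked by a pattern of names. The family itself was chosen with earlier results of these data known. Every probe whose gene symbol began with Rpl, Rps or Rplp, followed by a number and at most one of the endings a, x, l or l1, was taken from an array of 34844 gene names. These genes had 181 probes of 60 bases among 55681, and 171 probes of 78 genes were bright enough to be tested. The 10 untested probes, which include every probe of Rpl10l, Rpl39l and Rpl3l, lacked a signal well above background in either dye on at least 1 array. The pattern leaves out ribosomal proteins with other names, such as Rpsa and Fau, which are given with the rest of the pathway.

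RNA came from pancreatic islets, freed with collagenase and collected by hand under a microscope, of control mice and of RbΔK7 knock-in mice, whose retinoblastoma protein resists phosphorylation. Each of 2 two-colour arrays compared 1 control sample (Cy3, green) with 1 mutant sample (Cy5, red), and the 2 control and 2 mutant samples were grown and harvested separately. All mutant samples carried the same dye, so genotype and dye cannot be told apart. The arrays are called array 1 (replicate 1) and array 2 (replicate 2), and both lay on 1 slide. The labels give no strain, age or sex and no promoter or Cre line, and a knock-in of phosphorylation sites leaves no probe that could check the genotype. Islet RNA is a mixture, so fewer cells of a type and less RNA per cell cannot be told apart.

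The cytosolic ribosome joins a small 40S subunit, whose proteins carry Rps names, to a large 60S subunit, whose proteins carry Rpl names. The 60S subunit also bears a stalk of the acidic P proteins (Rplp0, Rplp1 and Rplp2), which recruits translation factors. Most ribosomal protein mRNAs begin with a run of C and T, the 5′ terminal oligopyrimidine (TOP) tract, through which mTORC1 and Larp1 set how much of them is translated. Unphosphorylated Rb is known to hold back RNA polymerases I and III, which make ribosomal RNA, 5S RNA and transfer RNA. In beta cells these proteins belong to the machinery that makes insulin at high rates.

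Sequence is shown for the probes on which the later results turn, since a ribosomal protein probe can meet processed pseudogenes, near-identical copies or only 1 splice variant. Positions are on mm9, as the array files give them. A placement over more than 100 bases is read here as a probe that crosses introns, which was not checked against the genome. For Rps24, whose last exons are alternatively spliced, the probes cover different variants. A coding probe (chr14:25311190-25312666, plus strand) is shown whole, and a probe across the next exons (chr14:25312695-25315015, plus strand) is shown for its first 40 bases.
Rps24 coding probe: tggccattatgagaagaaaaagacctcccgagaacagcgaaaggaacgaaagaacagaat
Rps24 3′ probe: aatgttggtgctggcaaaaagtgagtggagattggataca

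A pair of Rps29 probes, both placed on chromosome 2 on the minus strand, overlaps in position but differs in sequence. Probe A lies at chr2:172335021-172335079 and probe B at chr2:172335003-172335062. Over the 42 bases where they overlap they differ at 3 positions, shown in capitals, so they cannot both match that place exactly.
Rps29 probe A: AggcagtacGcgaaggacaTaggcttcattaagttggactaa
Rps29 probe B: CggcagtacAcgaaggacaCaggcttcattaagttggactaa

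The probes of Rps27 (chr9:114891672-114891731, minus strand) and of its paralogue Rps27l (chr9:66795486-66797176, plus strand) are shown because these related genes had different ratios.
Rps27 probe: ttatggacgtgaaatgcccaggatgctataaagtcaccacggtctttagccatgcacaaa
Rps27l probe: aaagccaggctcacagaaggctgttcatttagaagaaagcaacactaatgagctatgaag

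For Rpl7 and Rpl12, whose brightest probes were among the 5 highest and the 5 lowest by mean ratio, 1 coding probe each is shown, at chr1:16091865-16091924 (minus strand) and chr2:32818526-32818585 (plus strand).
Rpl7 probe: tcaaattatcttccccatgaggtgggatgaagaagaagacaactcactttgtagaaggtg
Rpl12 probe: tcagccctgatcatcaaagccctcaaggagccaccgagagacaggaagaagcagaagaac

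Of the 181 probes, 180 had a position, and 36 of them were placed over more than 100 bases. Probes of 12 genes lay on several chromosomes, as for Rpl36 (chromosomes 5, 11 and X), Rpl13 (4 and 8) and Rps4x (3 and 5). All 4 Rps27 probes lay on chromosome 9, while the RefSeq promoter table places Rps27 on chromosome 3. Over the 60 member genes found in that table, 14 of 128 placed probes lay on a chromosome other than the gene's. No probe shared a run of 20 bases with a probe of another member gene, and 38 probes shared one with another probe of the same gene. What fraction of a signal came from pseudogene transcripts was not tested.

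Promoter windows of 300 bases, from 250 before to 50 after the RefSeq start (GRCm38.p6), were read for 72 starts of these 60 genes. An unbroken C/T run of at least 5 bases over the first transcribed base was found in 20 of the 72 windows (27.8%) and in 10.1% of all 32851 windows. Runs were counted to both sides of that base, and how exact the RefSeq starts are was not tested. Genes without such a run are therefore not shown to lack a TOP tract. The 5 longest runs belonged to 60S genes, and the longest 2 among 40S genes belonged to Rps10 and Rps18. These 7 are shown from 30 bases before the start to 20 bases into the transcript, with the run in capitals, at chr2:26910777-26910826 (plus strand) for Rpl7a, chr7:109519165-109519214 (plus) for Rpl27a, chr3:130730318-130730367 (minus) for Rpl34, chr2:39005112-39005161 (minus) for Rpl35, chr14:18270967-18271016 (minus) for Rpl15, chr17:27635225-27635274 (minus) for Rps10 and chr17:33955646-33955695 (minus) for Rps18.
Rpl7a: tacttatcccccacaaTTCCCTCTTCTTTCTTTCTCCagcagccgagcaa
Rpl27a: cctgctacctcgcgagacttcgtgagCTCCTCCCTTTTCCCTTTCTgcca
Rpl34: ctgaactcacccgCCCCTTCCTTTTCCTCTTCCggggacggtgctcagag
Rpl35: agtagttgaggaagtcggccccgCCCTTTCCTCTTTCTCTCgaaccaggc
Rpl15: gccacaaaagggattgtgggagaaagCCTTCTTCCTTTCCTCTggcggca
Rps10: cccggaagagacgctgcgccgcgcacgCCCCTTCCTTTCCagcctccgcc
Rps18: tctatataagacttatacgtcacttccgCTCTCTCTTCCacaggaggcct

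Motifs were searched on both strands of the same windows. The GABP motif CCGGAAG was in 25 windows (34.7%, against 8.86% of all windows), and the YY1 motif AANATGGC was in 17 (23.6%, against 6.05%). The TATA box letters TATAAA were in 7 windows (9.72%, against 13.6%). The E2F letters TTTCCCGC, TTTCGCGC, TTTGCCGC and TTTGGCGC were in 0 of 72 windows, against 2.26% of all. E2F factors are the main DNA-binding partners of Rb. Because few windows of any gene held these E2F letters, 72 windows are too few to tell whether the members differ. On the brightest probe of each gene, the 20 tested genes with a C/T run had median log2 ratios (mutant over control) of 0.11 on array 1 and -0.11 on array 2, and the 37 without one had 0.09 and -0.19.

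Before the results on single genes, 3 facts on the samples bear on all of them. In order of control 1, control 2, mutant 1 and mutant 2, the summed log2 level of 31 acinar cell genes, mostly of digestive enzymes, was 20.8, 22.2, 21.2 and 17.3, and that of 6 Reg genes was 16.8, 19.0, 17.2 and 13.3. The summed log2 level of 8 beta cell markers was 19.0, 18.4, 18.7 and 19.4, and all 8 passed the brightness filter. Stromal markers (7 genes) had 10.71, 12.8, 13.3 and 14.8, and 5 of them rose in the mutant after loess, while no probe passed with normexp offset 0. Between 35.9% and 46.9% of probes were well above background in a sample, and no gene spot was saturated. Their part in the ribosomal protein ratios was not tested.

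With intensity-dependent (loess) normalization, no ribosomal protein gene passed the test in either direction. Ratios are log2 of mutant over control, and a probe passed when its limma adjusted p was under 0.05 over all 22266 tested probes. Of 171 member probes 0 rose, against 82 (0.368%) of all tested probes, and 0 fell, against 3 (0.0135%). The counts over all probes depended on the settings: 0 rose with normexp offset 0, with Agilent's processed signals or with the deposited ratios, and 169 rose with a loess span of 0.7, while 0 members passed in each. At an unadjusted limma p under 0.05 there was 1 member probe, against 2527 of all tested probes. It was the dimmer of 2 Rpl22 probes, named after its values were seen, with ratios of 0.27 and 0.43 and the lowest limma adjusted p of the family, 0.42. The 2 arrays limit the precision, and most of the spread behind each p was borrowed from other probes.

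The family's ratios had opposite signs on the 2 arrays and were small. Its median ratio was 0.10 on array 1 and -0.18 on array 2, where all tested probes had medians of 0.02 and 0.02. In all, 62.6% of the probes were higher in the mutant on array 1 and lower on array 2, against 21.1% of all tested probes, and 4 showed the reverse. A further 19 were higher in the mutant on both arrays (11.1%, against 32.4%) and 41 were lower on both (24.0%, against 25.3%). With 1 probe per gene, the brightest, 50 of 78 were higher on array 1 and lower on array 2, 9 higher on both and 18 lower on both.

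The members lay close together. Their ratios had an SD over probes of 0.15 and 0.17 on the 2 arrays, and all tested probes had 0.29 and 0.48. This was not particular to the family. With 1 probe per gene, mitochondrial ribosomal proteins had SDs of 0.158 and 0.165, and nuclear genes of oxidative phosphorylation 0.190 and 0.195. Proteasome subunits had 0.164 and 0.333. The range was -0.20 to 0.63 on array 1 and -0.62 to 0.58 on array 2. Across the 171 probes the ratios of the arrays had Pearson's r = 0.16 and Spearman's rho = 0.22, given as a description, since probes of 1 array share their samples and hybridization. Over all tested probes r was 0.24 and rho was 0.26.

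**Figure D1:**
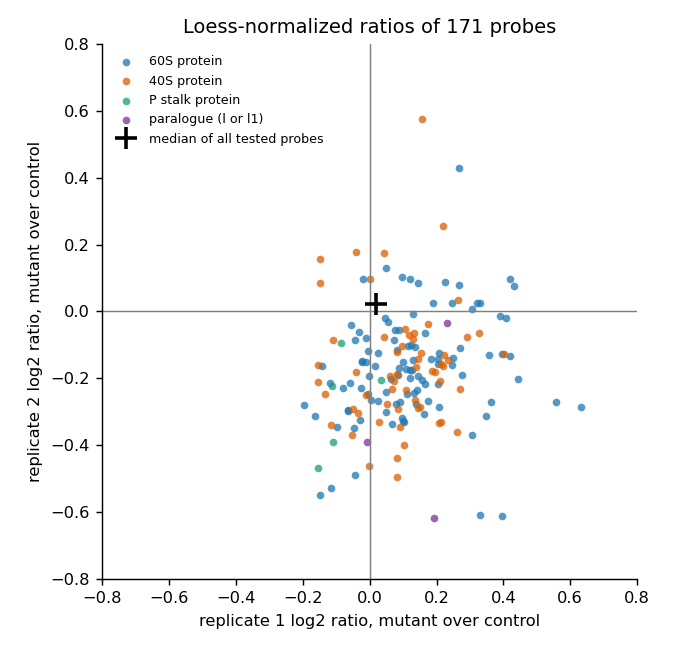
Each point is 1 of the 171 tested probes, placed by its loess-normalized log2 ratio of mutant over control on array 1 (x axis) and on array 2 (y axis), coloured by subunit, and the cross marks the medians of all tested probes. Most points, 62.6%, lie at the lower right, higher on array 1 and lower on array 2.

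Without an intensity-dependent step, the number of member probes that passed depended on where the ratios were centred. When each array's ratios were centred on the median of all gene probes, 132 of 171 member probes rose and 0 fell, and 169 were higher on both arrays. In that setting 29.9% of all tested probes rose as well, and their medians were 0.40 and 0.84 where the family's were 0.85 and 0.96. When the centre was the median of the tested probes, an alternative chosen after seeing the data, 1 member probe rose, against 2.63% of all tested probes. It was the Rps24 3′ probe, with ratios of 0.57 and 0.89 in that setting (limma adjusted p = 0.0485).

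The ratio before loess depended on brightness, and ribosomal protein probes were among the brightest on the array. The median member stood at percentile 98.9 of all gene probes by mean intensity of the dyes, and 153 of the 171 lay in the brightest decile of tested probes. Members made up 9 of the 100 brightest tested probes, 32 of the 200 brightest and 127 of the 1000 brightest. From the dimmest to the brightest decile, the median centred ratio of the other probes went from 0.12 to 0.68 on array 1 and from 0.22 to 1.13 on array 2.

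Against the other probes of the brightest decile, which were dimmer at the median, the family was again split between the arrays. In the brightest decile the members' median centred ratio was 0.85 on array 1, against 0.68 for the 2074 others, and 0.97 on array 2, against 1.13. The differences were 0.17 and -0.16. Members in this decile had a median brightness percentile of 99.1 and the others of 97.9, so they were not matched in brightness. In the same decile, 123 of 153 members and 1394 of 2074 other probes rose with median centring. After loess 96 of the 153 members were higher on array 1 and lower on array 2, and 517 of the 2074 others. When the ratios were centred on these 2074 probes, also chosen after seeing the data, 4 member probes fell, against 29.7% of all tested probes. They were probes of Rpl7l1, Rpl21, Rpl39 and Rps25, all dim, and they are the 4 tested member probes that were not well above background in every sample.

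**Figure D2:**
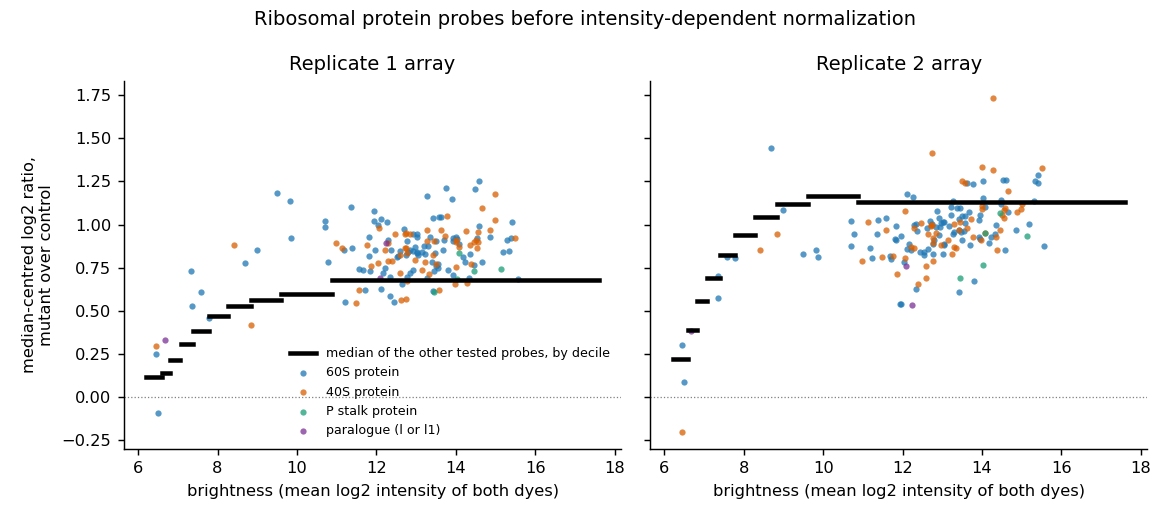
Median-centred log2 ratio of mutant over control (y axis) against mean log2 intensity of the dyes (x axis) for the 171 member probes, coloured by subunit, on each array. Black bars are medians of the other tested probes in deciles of brightness. In the brightest decile the members' median is 0.85 against a bar at 0.68 on array 1, and 0.97 against 1.13 on array 2.

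For most members the control samples differed from each other by more than the size of the mean ratio. Channel levels are log2 intensities made comparable between arrays by quantile normalization of the mean brightness. The family's median level was 12.96 in control 1, 13.14 in control 2, 13.07 in mutant 1 and 12.90 in mutant 2. Control 2 was above control 1 for 161 of 171 probes, with a median difference of 0.21, and mutant 2 was below mutant 1 by a median of 0.09. Over all tested probes control 2 was above control 1 for 10463 of 22266. There the median difference of replicate 2 minus replicate 1 was -0.019 in the controls and -0.007 in the mutants. For 143 member probes the gap between the controls was larger than the size of the mean ratio, as it was for 12443 of all 22266 tested probes. Most members had ratios of opposite sign on the arrays, which makes their mean ratio small. Both mutant levels lay above both control levels for 11 member probes, against 22.2% of all tested probes, and below both for 25, against 15.6%. Control 2 was also the sample with the most acinar RNA and mutant 2 the one with the least, as the summed levels above show.

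On the brightest probe of each gene, the 5 highest mean ratios belonged to 60S genes. The brightest Rpl23 probe read 14.37 and 14.58 in control 1 and 2. It read 14.79 and 14.68 in mutant 1 and 2, so the groups did not overlap. Its ratios were 0.42 and 0.10, which average 0.26 ± 0.23 (SD, n = 2), and it did not pass (limma adjusted p = 0.588). The next brightest Rpl23 probe had 0.36 and -0.13, with mutant 2 (13.87) below control 2 (14.00), so its groups overlapped. Another Rpl23 probe was printed as 10 spots per array. These spots gave ratios of 0.32 ± 0.063 and 0.026 ± 0.042 (SD over 10 spots of 1 array, which is technical).

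Rpl7, a 60S protein with a large extension into ribosomal RNA, read 13.47 and 13.81 in the controls and 13.90 and 13.88 in the mutants, again without overlap. Its ratios were 0.43 and 0.08 on this probe. Its other probes were all negative on array 2 (-0.11, -0.02 and -0.20). The one shown above had 0.44 and -0.20, and there the groups overlapped (11.14 and 11.46 in the controls, 11.59 and 11.26 in the mutants). Rpl4, which lines the peptide tunnel, read 13.51 and 13.58 in the controls and 13.77 and 13.66 in the mutants. Rpl35, at the tunnel exit, had ratios of 0.39 and -0.01. Rpl5, a partner of 5S RNA, had ratios of 0.33 and 0.03. None of these 5 passed (limma adjusted p from 0.588 to 0.724), and in each of them array 1 gave the larger value.

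On the same probes, the lowest mean ratios were spread over both subunits and the paralogues. Rpl12, which sits at the base of the stalk, read 13.73 and 14.15 in the controls and 13.69 and 13.66 in the mutants, so both mutant levels were below both controls. Its ratios were -0.045 and -0.49 on this probe and -0.12 and -0.53 on the probe shown above. Rpl41, a very short peptide of the 60S subunit, read 15.47 and 16.09 in the controls and 15.28 and 15.81 in the mutants. Here the groups overlapped, although the ratio was negative on both arrays (-0.20 and -0.28), because control 2 and mutant 2 were both high. Rps21, of the 40S subunit, had ratios of -0.16 and -0.21. None passed (limma adjusted p = 0.609 for Rpl12, 0.583 for Rpl41 and 0.674 for Rps21).

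Some genes differed between the arrays far more than the family did. Rpl36a, a 60S protein near the site where transfer RNA leaves, read 11.79 and 12.25 in the controls and 12.12 and 11.64 in the mutants, with ratios of 0.33 and -0.61. Another Rpl36a probe, which overlaps this one over most of its length, gave 0.40 and -0.61. A separate Rpl36a probe gave 0.21 and -0.28, the same signs with a smaller gap. Rps27l had 0.19 and -0.62, Rps18 0.08 and -0.44, and Rps15 0.10 and -0.40. In all 4 the mutant was higher on array 1 and lower on array 2, and none passed (limma adjusted p from 0.762 to 0.882).

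Of the 5 brightest members, Rpl41 was among the lowest ratios, Rplp0 belongs to the stalk, and the other 3 had small ratios. Rps14, a 40S protein at the platform of the subunit, had 0.04 and 0.17, Rpl10, which completes the 60S subunit late in its assembly, 0.14 and 0.09, and Rpl37a 0.05 and 0.13. In each of these 3 the samples of replicate 2 were brighter than those of replicate 1 in both dyes, as for Rps14 with 15.32 and 15.36 in control 1 and mutant 1 and 15.77 and 15.94 in control 2 and mutant 2. The gap between arrays was larger than that between genotypes.

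**Figure D3:**
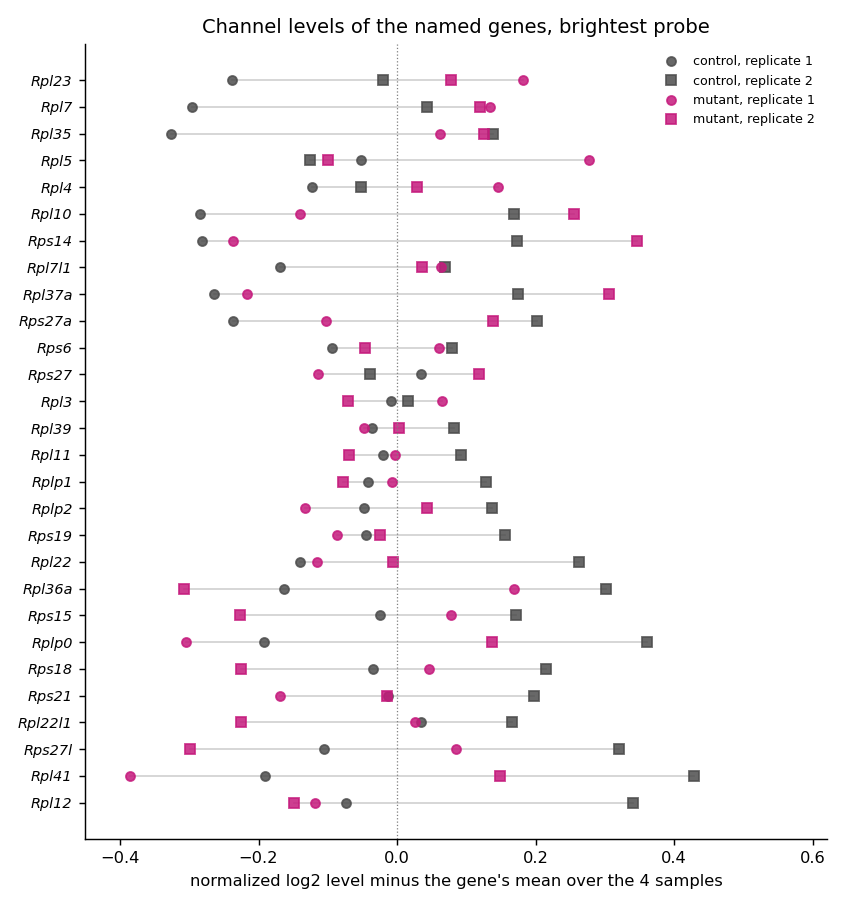
Normalized log2 channel level of each named gene's brightest probe in the 4 samples, drawn as the difference from the gene's mean over the samples (x axis) and ordered by mean ratio. Grey marks are controls and pink marks mutants, circles replicate 1 and squares replicate 2. The control 2 squares lie right of the control 1 circles for most genes, and Rps14 shows both squares to the right.

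The large and small subunits had nearly the same medians. Among 104 probes of 60S proteins the medians were 0.11 and -0.17, and among 59 probes of 40S proteins 0.10 and -0.18. With the P stalk counted in the large subunit (109 probes), its median was above that of the small subunit by 0.0017 and 0.0069 on the 2 arrays. Of the 60S probes 64 were higher on array 1 and lower on array 2, and of the 40S probes 40.

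The P stalk had lower medians than the rest of the family. Its 5 probes, 3 of them of Rplp0, had medians of -0.11 and -0.22. Of the 5, 4 were lower in the mutant on both arrays, against 24.0% of the family and 25.3% of all tested probes. These 4 were the Rplp2 probe and all 3 Rplp0 probes, whose positions lie close together and in part overlap. Rplp0, the base of the stalk and a common reference gene in RNA assays, read 14.94 and 15.49 in the controls and 14.83 and 15.27 in the mutants, with ratios of -0.11 and -0.22. Its other probes gave -0.11 and -0.39, and -0.15 and -0.47. Rplp2 had ratios of -0.08 and -0.09, and Rplp1 0.03 and -0.21. None of the 3 genes passed, and with median centring all had positive means, from 0.84 for Rplp0 to 0.90 for Rplp2, so that the direction depended on the normalization.

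The ubiquitin fusion gene Rps27a, which encodes a 40S protein joined to ubiquitin, had ratios of 0.13 and -0.06. In the 5S particle, which binds Mdm2 when ribosome assembly fails, Rpl11 had 0.02 and -0.16 beside 0.33 and 0.03 for Rpl5. Rps6, the 40S protein that S6 kinases phosphorylate downstream of mTORC1, had 0.15 and -0.13. Rps19, the gene mutated most often in Diamond-Blackfan anaemia, had -0.04 and -0.18. None of these passed, and the limma adjusted p of each was at least 0.721.

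Of the 6 paralogues, 3 could be tested. Rpl22l1 had ratios of -0.01 and -0.39 while its parent Rpl22, an RNA-binding 60S protein, had 0.02 and -0.27 on its brightest probe. Rps27l had 0.19 and -0.62, and Rps27 had -0.15 and 0.16 on its brightest probe, opposite in sign on each array. The Rps27 levels were 14.32 and 14.25 in the controls and 14.17 and 14.40 in the mutants, and those of Rps27l 12.12 and 12.55 in the controls and 12.31 and 11.93 in the mutants. In both genes the groups overlapped. All 4 Rps27 probes were higher in the mutant on array 2, from 0.08 to 0.18, and 3 of the 4 were lower on array 1. The remaining one is the Rps27 probe shown above, with ratios of 0.0022 and 0.0957. It was opposite in sign to Rps27l on array 2 only. Rpl7l1 had 0.23 and -0.03 beside 0.43 and 0.08 for Rpl7, and its control signal cleared the background on 1 of the 2 arrays. The parents Rpl3 (0.07 and -0.09) and Rpl39 (-0.01 and -0.08) were measured, and their paralogues Rpl3l, known from striated muscle, and Rpl39l, known from testis, were not well above background in any sample.

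Probes of the same gene did not always agree. Several probes were tested for 54 genes, and in 26 of these the probe means had opposite signs. The widest spread was in Rps24, a 40S protein. Its coding probe had ratios of -0.0011 and -0.46, and its 3′ probe had 0.16 and 0.58. A probe placed just downstream (chr14:25315021-25315080) had 0.17 and -0.038, and another, overlapping it, 0.26 and 0.03. The coding probe read 12.63 and 12.79 in the controls and 12.62 and 12.33 in the mutants, both mutants below both controls by a small margin on array 1. The 3′ probe read 14.05 and 14.12 in the controls and 14.21 and 14.70 in the mutants, both above. None of the 4 passed after loess (limma adjusted p from 0.464 to 0.907).

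Other genes with wide spreads included some whose probes lie on different chromosomes. Rpl13 had means from -0.35 to 0.02 over 4 probes, and its lowest and highest probes were both placed on chromosome 4, away from the gene's own chromosome 8. Rpl22 had means of -0.12 and 0.35, and Rps13, a 40S protein, had -0.07 and 0.24. The 2 Rps29 probes shown above, which differ at 3 of 42 shared bases, had ratios of 0.12 and -0.07 for probe A and -0.13 and -0.25 for probe B, so that probe B was lower than probe A on both arrays.

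**Figure D4:**
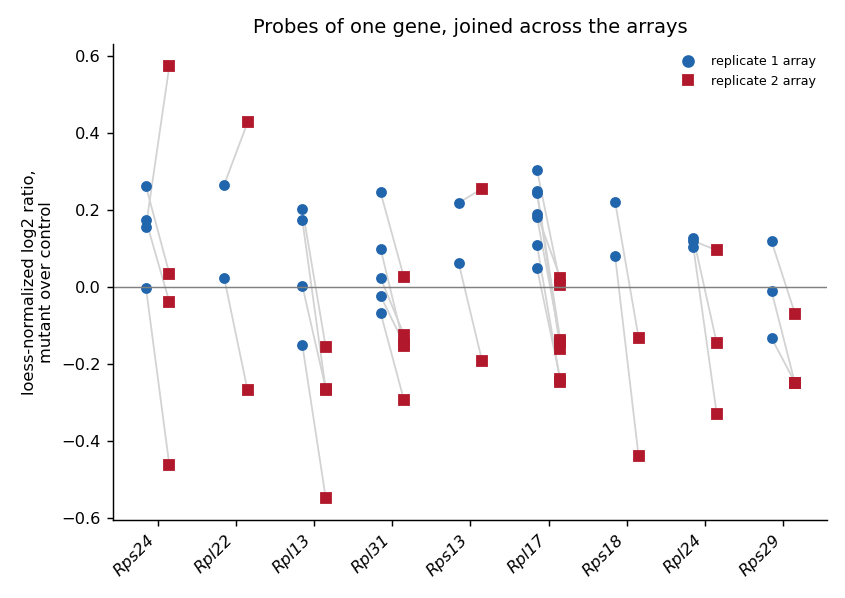
Loess-normalized log2 ratio of mutant over control (y axis) for every tested probe of 9 genes, with blue circles for array 1, red squares for array 2 and a line joining the values of 1 probe. The Rps24 probes range from -0.46 to 0.58 on array 2, and the Rps29 probes span -0.13 to 0.12 on array 1.

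In the rest of the pathway no gene passed after loess, and the split between the arrays was shared by some lists. Counts are on the brightest probe per gene. Over all tested probes 0.368% rose, 0.0135% fell, 21.1% were higher on array 1 and lower on array 2, and 25.3% were lower on both arrays. Of 20 translation factors and other mRNAs with a TOP tract, 0 rose and 0 fell, the medians were 0.14 and -0.10, and 12 were higher on array 1 and lower on array 2. The elongation factor gene Eef1a1 had 0.36 and -0.03, Eef2 0.05 and -0.09, and Npm1, a nucleolar chaperone, 0.44 and 0.10. Gas5, a non-coding snoRNA host with a TOP tract, had 0.01 and 1.53 (limma adjusted p = 0.475) and was the highest of the list on array 2.

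Ribosome assembly factors had the widest gap between the arrays' medians among these pathway lists. Of 47 tested (of 50 listed) 0 rose and 0 fell, with medians of 0.09 and -0.28, and 31 were higher on array 1 and lower on array 2. Nop56, of the box C/D particles that methylate ribosomal RNA, had 0.28 and -0.24, Dkc1, which makes pseudouridine in it, 0.21 and -0.22, and Bop1, a 60S assembly factor, 0.30 and -0.37. The nucleolin gene Ncl had 0.05 and -0.01. Initiation factors (25 of 26) had medians of -0.01 and -0.13, with 13 lower on both arrays.

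RNA polymerase I and III genes, which act where Rb is known to hold back transcription, had medians of 0.08 and -0.05 over 23 of 26 genes, with 0 past the test and 9 higher on array 1 and lower on array 2. Ubtf, the polymerase I factor UBF, had 0.23 and 0.74 (limma adjusted p = 0.37), and Polr1b, a polymerase I subunit, -0.08 and -0.40. Among 16 of 18 regulators the medians were 0.02 and -0.06. Myc, an activator of ribosome production, had 0.31 and -0.42, Larp1 -0.11 and -0.31, and Mdm2 0.22 and 0.11. Eif4ebp1, which blocks cap-dependent initiation, had -0.01 and -1.15. Ribosomal proteins named outside the pattern (5 of 6) had medians of 0.01 and -0.09, with Rack1 at 0.31 and 0.04 and Rpsa at -0.09 and -0.09.

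Other large complexes were closer to 0 on array 2. Mitochondrial ribosomal proteins (78 genes) had medians of 0.04 and -0.10 with 32 higher on array 1 and lower on array 2. Proteasome subunits (37) had 0.03 and 0.04 with 7 such genes, a share near that of all tested probes, and nuclear genes of oxidative phosphorylation (77) had -0.05 and -0.01 with 14, also near it. In each list 0 rose and 0 fell. The acinar list, with medians of 0.41 and -5.11 over 31 genes, had the same sign on each array as the ribosomal protein list, and 29 of 31 were higher on array 1 and lower on array 2. The Reg list had medians of -0.17 and -5.80, with 3 of 6 higher on array 1. Beta cell markers had the opposite signs to the ribosomal protein list, with medians of -0.36 and 0.25 over 8 genes. The part of these cell types in the ribosomal protein ratios was not tested.

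**Figure D5:**
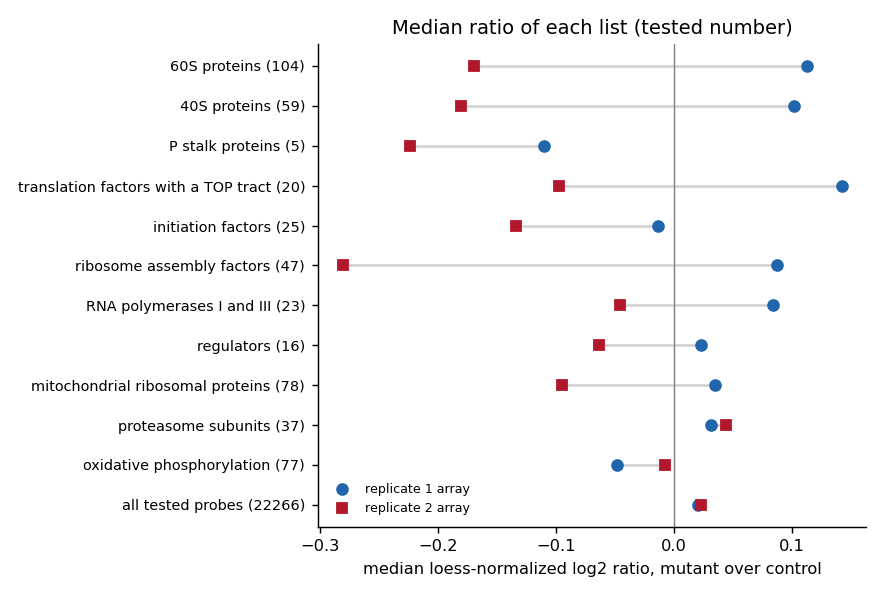
Median loess-normalized log2 ratio of mutant over control (x axis) of each gene list on array 1 (blue circles) and array 2 (red squares), with the tested number in brackets. The 60S and 40S lists lie at 0.11 and 0.10 on array 1 and at -0.17 and -0.18 on array 2, and the assembly factors reach -0.28.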

How the data were processed

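Red and green intensities were read from the deposited scanner files, for which the submitters' processing notes name Agilent Feature Extraction, version 10.7.3.1. The authors' deposited log10 ratios (red over green) served as an alternative. From the intensities, log2 ratios were computed here with limma 3.58.1 (R 4.3.3): normexp background correction with offset 50, loess with span 0.3 and control spots at weight 0, lmFit and eBayes on the ratios of 2 arrays against 0, with Benjamini-Hochberg adjustment over 22266 probes well above background in 1 dye or the other on both arrays. Replicate spots of a probe were averaged. Gene names are those of the array design, and 167 of 181 member probes matched RefSeq by accession. Sequences are from the array files and RefSeq.

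Named genes were, on the brightest probe of each gene, the 5 highest, 5 lowest, 5 most different between arrays and 5 brightest, plus fixed stalk, paralogue and parent genes and 5 others, except genes not reported here; Gas5, Ubtf and other pathway genes were named after their values were seen. The members and lists were chosen with earlier results of these data known. Alternatives are described in the closing section. The test was checked on simulated data.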

Additional observations from a re-analysis of the deposited data

How the results depend on the processing

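With median centring on all gene probes and no intensity-dependent step, 132 member probes rose and the medians were 0.85 and 0.96. In that setting 169 probes were higher and 0 lower on both arrays. There 6 named genes with negative means passed with positive ones: Rpl11 (0.91), Rpl3 (0.96), Rpl39 (0.90), Rplp0 (0.84), Rplp1 (0.89) and Rplp2 (0.90). Another 11 passed with their sign unchanged. With centring on tested probes, 1 probe rose, the medians were 0.45 and 0.12, and 133 were higher and 4 lower on both. With centring on the other probes of the brightest decile, 4 probes fell, 22 were lower on both and Rpl7l1 turned negative (-0.55). Probes higher on both numbered 9 of 78 with 1 probe per gene (11.5%, against 11.1% of the 171). They numbered 8 with a loess span of 0.7, where the means of 6 named genes turned negative: Rpl10 (-0.03), Rpl37a (-0.06), Rps14 (-0.04), Rps27 (-0.11), Rps27a (-0.09) and Rps6 (-0.09). Probes lower on both numbered 24 with offset 0, 25 without background correction and 18 of 78 with 1 probe per gene (23.1%, against 24.0% of the 171). The other settings kept 0 calls in both directions, and acinar and Reg probes or the members at weight 0 in the loess fit changed no call. The 60S (with P stalk) minus 40S difference moved by more than its very small spread: to -0.0245 and -0.0106 with each of the 3 centrings, 0.0099 and 0.0139 with span 0.7, -0.0068 and 0.0013 without background correction, 0.0116 and 0.0317 with Agilent's processed signals, 0.0103 and 0.0336 with the deposited ratios, and, on array 2, -0.000372 with members at weight 0 and -0.0105 with 1 probe per gene. The cause of these moves was not tested. The array pairs the samples: in separate-channel fits 0 member probes passed with the replicate block and 0 without it. Leaving out an array leaves 1 ratio per probe and no test.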
